A study of Mus musculus with 12 samples.

Results

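The comparison described here set 3 libraries of mouse heart RNA labelled female cardioGRKO against 3 labelled female floxed, 6 of the 12 libraries of the study. It was chosen by its column headers in the authors' table of log2 values, without use of any measured value beyond a minimum level. A gene was tested if 3 or more of the 12 libraries reached log2 of 10, which 14721 of 24918 did. All mice were C57BL/6, 2 months old and untreated, and the tissue was heart. Floxed mice carry an Nr3c1 gene flanked by loxP sites, and cardioGRKO mice add the transgene αMHC-Cre, which cuts the floxed gene out of cardiomyocytes only, so that the other cells of the heart keep it. No group carries Cre without the floxed gene, so effects of Cre and of the deletion cannot be told apart. Since the genotype entry is wild-type throughout, the groups rest on the titles. Nothing in the titles says whether each library came from its own mouse, so that every p-value below is set against library spread that may be technical only. The study asked, by its title, how loss of the receptor from cardiomyocytes alters cardiac transcripts in each sex.

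The glucocorticoid receptor, encoded by Nr3c1, is a steroid receptor that waits in the cytoplasm on the chaperone Hsp90 and enters the nucleus when it binds cortisol or corticosterone. There it raises genes such as Fkbp5, Tsc22d3, Per1 and Sgk1 through DNA elements of its own and restrains inflammatory genes. In the heart it is known for its part in maturation, contraction and fuel use.

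The 3 libraries labelled cardioGRKO correlated with each other at 0.9997 to 0.9998 over the genes tested, and the 3 labelled floxed at only 0.998 to 0.9997. The lower values came from floxed 1 and 2, which held transcripts of corneal and stratified epithelium. The mean of 30 such markers was 8.04 and 8.43 on the log2 scale in floxed 1 and 2, against 6.97 in floxed 3, 6.85 to 6.98 in the libraries labelled cardioGRKO and 6.87 to 6.94 in the 6 libraries labelled male. Every change below was therefore also fitted without floxed 1 and 2. In that fit floxed 3 stands alone and is assumed to vary like the other groups. The second fit shares all its libraries with the first and is a check, not an independent repeat. The heart label was checked against markers. All 14 cardiomyocyte markers were tested, Myh6, the main myosin of the adult mouse heart, took 2.68% to 2.90% of the linear sum of each library, and the log2 of the summed markers was 21.39, 21.37 and 21.42 under the floxed label and 21.41, 21.40 and 21.39 under the cardioGRKO label. Sequencing depth cannot be read from normalized values, and precision is given by the spread between libraries, whose median SD was 0.0285 log2 in the floxed and 0.0269 in the cardioGRKO group. Differences are on the deposited log2 scale.

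Nr3c1 went against the labels. The gene (Entrez 14815) stood at 10.74, 10.71 and 10.78 in the libraries labelled floxed and at 10.90, 10.90 and 10.85 in those labelled cardioGRKO. The groups did not overlap, and the higher one carries the label of the deletion. The difference was 0.14 (SE 0.024, limma, adjusted p = 3.84e-04), or 0.10 without floxed 1 and 2 (adjusted p = 0.0387). By exact permutation of the 6 labels, two-sided, p was 0.1, and 3 against 3 libraries cannot give a smaller one. Between the libraries labelled male the gene changed by -0.56 in the direction the labels imply. The difference of the 2 changes was 0.70 (limma, adjusted p = 1.12e-10). The group means were 11.41 in male floxed, 10.85 in male cardioGRKO, 10.74 in female floxed and 10.88 in female cardioGRKO. Both female means lay near the male cardioGRKO mean and below the male floxed mean. The words floxed and cardioGRKO below name labels, and each direction is drawn from them. Whether the 2 female labels are exchanged was not tested, and an exchange would turn the sign of every female change below.

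The chaperones that fold the receptor moved in both directions, with 4 of 8 higher and 1 lower by the rule that follows. From here on a gene rose or fell when its Benjamini-Hochberg adjusted p from limma (two-sided, over all genes tested) was under 0.05 in the same direction in both fits. Of all genes, 16.5% met this, 9.11% higher and 7.42% lower. Of the 12 tested receptors, chaperones and ligand enzymes, 6 rose and 1 fell, and the median change was 0.14, against -4e-04 over all genes. Hspa8, a constitutive Hsp70 that loads the receptor, stood at 12.44, 12.38 and 12.55 and rose to 12.80, 12.74 and 12.79. Hsp90ab1, an Hsp90 isoform, was 14.92 in each of the 3 floxed libraries and 15.12, 15.14 and 15.15 under cardioGRKO. Neither pair of groups overlapped. Hsp90aa1, the inducible isoform, and Fkbp4, the co-chaperone that favours nuclear entry, rose by 0.17 each, and H6pd, which feeds the enzyme that regenerates active glucocorticoid, by 0.14. That enzyme, Hsd11b1, differed by 0.05 and the mineralocorticoid receptor Nr3c2 by 0.01, and neither passed the test. Fkbp5, the co-chaperone that holds the receptor back and is induced by it, was the exception, at 7.84, 7.86 and 7.85 against 7.65, 7.72 and 7.65, a change of -0.18 (SE 0.031, limma, adjusted p = 4.23e-04).

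With all 3 floxed libraries, 4309 genes (29.3%) were called, 2241 higher (15.2%) and 2068 lower (14%). Without floxed 1 and 2, 2734 were called (18.6%), 1485 higher (10.1%) and 1249 lower (8.48%). Both fits called 2434 genes, 1341 higher and 1093 lower, and 0 genes were called in opposite directions. Most of these changes were small, with a median size of 0.14, and 2381 of the 2434 had groups that did not overlap, against 40.7% of all genes tested. The calls and the overlap come from the same values, so this separation adds no support. The largest rises and falls named below were also chosen among genes without overlap. Past 1.2-fold in the fit of all libraries stood 296 of the genes called in both fits (2.01% of all genes tested), 136 higher and 160 lower. Past 1.5-fold stood 40 (0.272%), 11 higher and 29 lower. Leaving out floxed 1 and 2 moved a gene called in both by a median of 0.021. Another 1875 genes (12.7%), 900 higher and 975 lower, were called only with floxed 1 and 2 in the fit, and 41 of these were past 1.5-fold, all lower. Without those libraries 39 of the 41 came within 0.2 of no change.

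**Figure D1:**
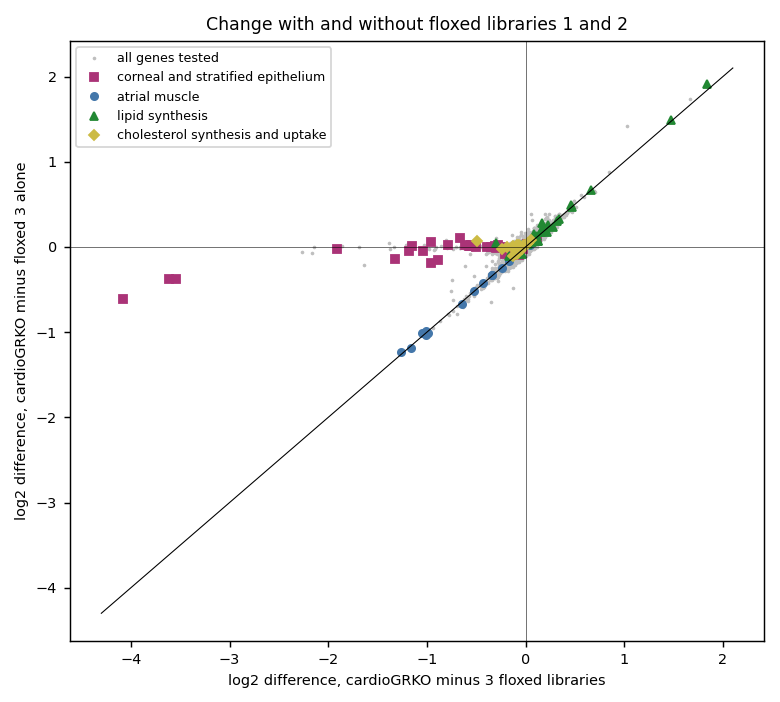
Change of each gene tested (grey) with all 3 libraries labelled female floxed (horizontal axis, log2) and with floxed 3 alone (vertical axis, log2), with 4 lists coloured and the diagonal drawn. Atrial genes from 0.04 down to -1.26 and lipid synthesis genes up to 1.84 lie along the diagonal, while corneal genes, down to -4.08 with all libraries, lie at -0.61 or above without floxed 1 and 2.

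The largest changes that were lost or shrank without floxed 1 and 2 were of epithelial genes. Krt12, the cornea's own keratin, measured 13.13, 13.98 and 8.35 under floxed and at 8.49, 7.45 and 7.27 under cardioGRKO. Floxed 3 lay below cardioGRKO 1 and above cardioGRKO 2 and 3, so the groups overlap. Leaving out floxed 1 and 2 took the change of Krt12 from -4.08 to -0.61, at which it kept its call. Of the 30 corneal and stratified markers tested, 27 were called lower with all libraries and 5 in both fits, and their median went from -0.57 to -0.003. Among the 10 largest changes that were lost were Krt5, a basal keratin, which went from -3.61 to -0.37, Aldh3a1, an abundant enzyme of the cornea, from -3.54 to -0.38, and Muc4, a mucin of wet epithelia, from -1.38 to -0.03. A2m, a protease inhibitor, and Lypd2 kept a call at a fraction of their size, at -1.63 against -0.22 for A2m and -1.33 against -0.14 for Lypd2. Cholesterol genes moved with them. Of 17 tested genes of cholesterol synthesis and uptake, 7 were called lower with all libraries and 0 in both fits, and the median went from -0.088 to 0.006.

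Genes of lipid synthesis included Scd1 and Fasn, both among the 15 largest rises. Rises were called for 16 of 29 tested members and falls for 0, and the median change was 0.13, or 0.15 without floxed 1 and 2. Scd1, which puts the first double bond into fatty acids, stood at 9.94, 10.02 and 9.87 under floxed and at 11.79, 11.79 and 11.78 under cardioGRKO, a 3.58-fold rise (1.84 log2, SE 0.032, limma, adjusted p = 2.29e-16). Fasn, the fatty acid synthase, stood at 10.50, 10.53 and 10.50 against 12.02, 11.96 and 11.97. Neither gene's groups overlapped, and the gap was many times the spread within a group. Acaca, the carboxylase that supplies Fasn with malonyl-CoA, was 8.14, 8.20 and 8.17 against 8.63, 8.63 and 8.66, a rise of 0.47. Thrsp, a nuclear regulator of lipid synthesis, rose by 0.66 and Acly, which makes cytosolic acetyl-CoA, by 0.17. Elovl6, which lengthens the product of Fasn, rose by 0.17, or 0.28 without floxed 1 and 2. Not every member followed: Scd2, the isoform of brain and many epithelia, differed by -0.30 with all libraries and by 0.05 without floxed 1 and 2.

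The 6 tested genes listed as regulators of these enzymes had a median of 0.044, against 0.17 for the 14 of fatty acid synthesis. Of these 6 regulators 0 were called in both fits. Thrsp, which rose by 0.66, was not counted among them. Srebf1, the sterol-regulated activator of Fasn and Scd1, was 10.32 and 10.41 as group means, a difference of 0.08 that passed the test only without floxed 1 and 2 (0.15), and Mlxipl, the carbohydrate-responsive activator ChREBP, differed by -0.04. In the list of triglyceride synthesis and lipid droplets 8 of 9 rose. Gpam, which starts glycerolipid synthesis, rose by 0.34, Cidec, a droplet fusion protein of fat cells, by 0.46, Plin5, the droplet coat of oxidative muscle, by 0.22, and Plin1, the coat of adipocytes, by 0.31. Gpd1, which makes glycerol phosphate, was not a list member and rose from 10.90, 10.92 and 10.84 to 11.45, 11.44 and 11.44 (1.48-fold).

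Markers of fat cells moved with the lipid genes. Cidec and Plin1 belong to both lists, so these lists are not separate counts. Rises were called for 10 of 13 white adipocyte markers and falls for 0 (median 0.22). The log2 of their sum went from 14.92, 14.90 and 14.94 to 15.08, 15.09 and 15.08. More abundant members than those named next set that sum. The floxed means of Adipoq, Cfd, Pck1 and Car3 were 6.45, 7.83, 6.92 and 8.93. Adipoq, the adipocyte hormone adiponectin, stood at 6.45, 6.47 and 6.43 against 6.92, 6.92 and 6.88. Cfd, the adipocyte protease adipsin, rose by 0.59, Pck1, which feeds glycerol synthesis in fat, by 0.85, and Car3, a carbonic anhydrase of fat and muscle, by 1.03. Car3 was the least even of these, at 8.98, 9.27 and 8.54 under floxed and 9.87, 9.98 and 10.01 under cardioGRKO, and its change was 1.41 against floxed 3 alone. Lep, the hormone leptin, was under the minimum, at 1.49 to 1.52 in the 6 libraries, and Retn, resistin, stood at 4.09 to 4.13 in all 6.

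Ucp1, the uncoupling protein that defines brown fat, stood at 7.08, 7.18 and 7.02 under floxed and at 8.77, 8.78 and 8.73 under cardioGRKO, a 3.17-fold rise (1.66 log2, SE 0.038, limma, adjusted p = 1.13e-14). Of the 9 tested markers of brown adipocytes, Ucp1 included, 4 rose and 1 fell, and the other 8 did not move as far as Ucp1. Cidea, a lipid droplet protein of brown fat, rose by 0.33 and Elovl3, a brown fat elongase, by 0.08, while Prdm16, the regulator of brown fat identity, differed by -0.03 and Dio2, which activates thyroid hormone, by 0.03, neither called, and the coactivator Ppargc1a fell by 0.19. The log2 of the summed brown markers was 15.21, 15.24 and 15.20 against 15.31, 15.28 and 15.29, of which Ucp1 was a small part. In bulk hearts more cells of a type and more RNA per cell cannot be told apart, and the part of fat cells in the rises of Scd1, Fasn and Ucp1 was not tested.

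**Figure D2:**
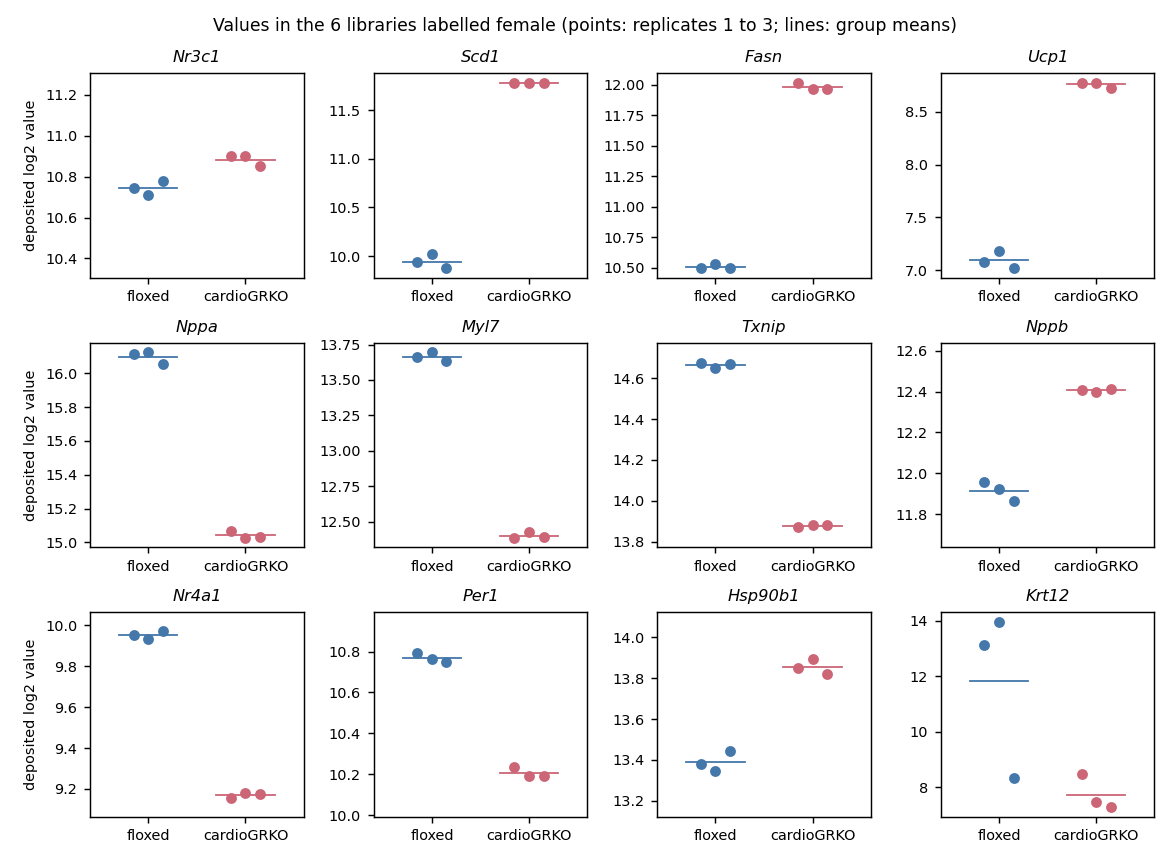
Deposited log2 values (vertical axes, each panel on its own scale) of 12 genes in the 3 libraries labelled female floxed and the 3 labelled female cardioGRKO, with lines for group means. Every panel but that of Krt12 shows groups that do not overlap, and Nr3c1 is higher under the cardioGRKO label, at 10.85 to 10.90 against 10.71 to 10.78.

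Genes of fatty acid uptake and oxidation mostly rose, 23 of 34 against 4 that fell (median 0.12). In the list of beta oxidation 12 of 15 rose and 0 fell. Hadha, the trifunctional protein subunit that runs the last steps on long chains, stood at 14.92, 14.89 and 14.96 against 15.23, 15.24 and 15.23. Acadm, the medium chain dehydrogenase, rose by 0.17 and Cpt2, which readies fatty acids inside mitochondria, by 0.14. Of 9 genes of uptake and activation 7 rose, among them Lpl, the lipase that frees fatty acids from lipoproteins, at 16.86, 16.88 and 16.81 against 17.15, 17.19 and 17.24. Cd36, the fatty acid transporter, rose by 0.25 and Acsl1, which activates fatty acids, by 0.28. Pdk4, the kinase that turns off pyruvate oxidation, rose from 14.04, 13.99 and 14.06 to 14.50, 14.54 and 14.54, or 1.41-fold. Among the falls, named after their values were seen, were those of Ucp2, a mitochondrial carrier (-0.31), Ppargc1a, the coactivator PGC-1α (-0.19), and Cpt1b, the gate for fatty acid entry in muscle (-0.09). After quantile normalization 17 members rose and 3 fell.

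Downstream of beta oxidation the changes were smaller. In the citric acid cycle and ketone use 8 of 19 rose and 0 fell (median 0.065), and 7 rose and 3 fell after quantile normalization (median 0.009). Ogdh, the 2-oxoglutarate dehydrogenase, rose by 0.21, Idh2, the mitochondrial NADP-linked isocitrate dehydrogenase, by 0.14, and Oxct1, which activates ketone bodies, from 14.76, 14.74 and 14.81 to 14.94, 14.97 and 14.93. Bdh1, the first enzyme of ketone use, rose by 0.27. In oxidative phosphorylation 11 of 45 rose and 1 fell (median 0.014), and after quantile normalization 5 rose and 10 fell with a median of -0.028, so no direction can be given for this list. Sdha, the catalytic subunit of complex II, stood at 15.10, 15.06 and 15.11 against 15.27, 15.26 and 15.26, and rose by 0.18. Atp5a1, the α subunit of ATP synthase, was 0.10 higher as deposited and 0.082 lower, at -0.082, after quantile normalization. In glucose uptake and glycolysis 8 of 23 rose and 2 fell, or 3 and 2 after quantile normalization, led by Pfkl, the liver type of phosphofructokinase, at 0.23, and Tpi1 at 0.16, while Slc2a1, the basal glucose transporter, fell by 0.19. Txnip, which holds glucose uptake back and belonged to no list, fell from 14.67, 14.65 and 14.67 to 13.87, 13.88 and 13.88 (-0.79, SE 0.014, limma, adjusted p = 2.29e-16).

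Genes of atrial muscle fell and kept the size of their change without floxed 1 and 2. Falls were called for 13 of 16 tested atrial genes and rises for 0, and the median was -0.48, or -0.47 without floxed 1 and 2. Nppa, which encodes atrial natriuretic peptide, stood at 16.11, 16.12 and 16.05 under floxed and at 15.07, 15.03 and 15.03 under cardioGRKO, a ratio of 0.481 (-1.05 log2, SE 0.017, limma, adjusted p = 1.41e-16). Myl7, the atrial regulatory light chain, was 13.66, 13.70 and 13.64 against 12.38, 12.43 and 12.39. Myl4, the atrial essential light chain, was 13.97, 13.98 and 14.01 against 12.83, 12.80 and 12.83. In each of these genes the lowest floxed library lay above the highest cardioGRKO library by many times the spread within groups. Sln, sarcolipin, the brake on the calcium pump in atria, fell by 0.99, Mybphl, an atrial myosin-binding protein, and Dkk3, a secreted glycoprotein, by 1.01 each, Sbk3, a kinase outside the list, by 1.02, and Bmp10, a growth factor of atrial muscle, by 0.65.

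Atrial channels and regulators fell by less. Kcna5, the ultrarapid potassium channel of atria, stood at 10.20, 10.20 and 10.19 against 9.76, 9.73 and 9.80, a change of -0.43. Kcnj3, a subunit of the acetylcholine-gated channel, changed by -0.17, while its partner Kcnj5 differed by 0.04 without a call. Gja5, connexin 40, and Tbx5, a T-box factor of atria and conduction system, fell by 0.34 each, and Nr2f2, the factor of atrial identity COUP-TFII, by 0.24. Among 17 tested chamber transcription factors 7 fell and 0 rose, Irx3, a factor of the conduction system, by 0.25 and Tbx20 by 0.31, whereas Gata4 differed by 0.09 and Irx4, a ventricular factor, by 0.14, neither in both fits. The log2 of 9 summed atrial markers was 16.79, 16.80 and 16.75 under floxed and 15.73, 15.70 and 15.71 under cardioGRKO. Less atrial tissue and less RNA of these genes per cell cannot be told apart here, and the labels used here do not say how the atria were treated at dissection.

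The natriuretic peptides split. Nppb, the B-type peptide that ventricles make under stretch, rose from 11.96, 11.92 and 11.87 to 12.41, 12.40 and 12.41 (0.49, SE 0.022, limma, adjusted p = 7.73e-11) while Nppa fell. Corin, the protease that activates the Nppa product, rose by 0.31, and Npr3, the clearance receptor, fell from 10.49, 10.48 and 10.44 to 9.93, 9.96 and 10.02. The signalling receptors Npr1 and Npr2 differed by 0.02 and -0.02 without a call.

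Genes of hypertrophy and stretch rose. The list held 13 rises and 3 falls among 18 tested members, and its median was 0.20 with and without floxed 1 and 2. Mybpc2, the fast skeletal myosin-binding protein, stood at 9.32, 9.28 and 9.38 against 10.02, 10.04 and 10.01, a 1.62-fold rise. Ankrd23, a titin-bound stretch sensor, rose from 12.60, 12.60 and 12.65 to 13.16, 13.11 and 13.10, and Acta1, skeletal α-actin, from 13.35, 13.38 and 13.38 to 13.81, 13.78 and 13.79. All 3 genes had groups that did not overlap. Xirp2, an adhesion protein of intercalated discs, rose by 0.35, Rcan1, a calcineurin regulator, by 0.32, and Ankrd1, the stretch-responsive protein CARP, by 0.18. Myh7, the slow myosin of the fetal and stressed ventricle, stood at 13.99, 13.98 and 14.01 against 14.05, 13.98 and 13.97 and was not called (difference 0.01, limma, adjusted p = 0.85). The 3 falls, named after their values were seen, were of Ctgf, a matrix-inducing factor (-0.42), Fhl1, a titin-bound LIM protein (-0.27), and Acta2, smooth muscle actin (-0.10).

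Isoforms of skeletal muscle rose beside them, with 9 of 16 tested higher and 2 lower and a median of 0.085. Mybpc2 and Acta1 belong to both lists, so the 2 lists are not separate counts. Casq1, the calsequestrin of skeletal muscle, stood at 10.76, 10.74 and 10.81 against 11.45, 11.47 and 11.47, a 1.62-fold rise. Atp2a1, the fast calcium pump SERCA1, rose by 0.41. Markers of skeletal muscle fibres, Atp2a1 and Acta1 among them, had a log2 sum of 13.40, 13.43 and 13.43 against 13.85, 13.82 and 13.84. Acta1 alone stood at 13.35, 13.38 and 13.38 against 13.81, 13.78 and 13.79, so this sum was mostly Acta1. The fast myosins Myh1, Myh2 and Myh4, which define those fibres, stood under the minimum at 0.07 to 1.19 in the 6 libraries.

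Contractile and calcium genes of the working heart moved in both directions. Of 23 sarcomere genes 8 rose and 3 fell as deposited and 4 rose and 5 fell after quantile normalization, with medians of 0.016 and 0. Tnnt2, cardiac troponin T, stood at 18.09, 18.06 and 18.10 against 17.84, 17.82 and 17.80 and fell by 0.26. Tcap, the titin cap, fell by 0.37, and Myh7b, a further myosin heavy chain, rose by 0.34. Of 27 calcium handling genes 5 rose and 9 fell, or 3 and 11 after quantile normalization. Atp2a2, the calcium pump of cardiac stores, stood at 17.89, 17.85 and 17.88 against 18.06, 18.07 and 18.08. Hrc, a calcium buffer of those stores, rose by 0.24. The falls held 4 pore subunits of calcium channels, with Cacna1c, the L-type channel of the working heart, at 13.32, 13.28 and 13.35 against 13.00, 12.98 and 13.01, and with the T-type channels Cacna1h and Cacna1g at -0.36 and -0.27 and Cacna1d, the L-type channel of atria and pacemaker, at -0.31. Ryr2, the release channel, differed by -0.02 without a call.

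Other channels also split. Of 20 potassium channel genes 4 rose and 5 fell, with Kcnk3, a leak channel, and Kcnip2, the partner of the transient outward channel, at 0.19 and 0.18, and with Kcne1, a subunit of the slow delayed rectifier, at -0.30. Of 14 sodium and pacemaker channels and connexins 4 rose and 3 fell. Scn4b, a β subunit of sodium channels, stood at 8.79, 8.82 and 8.77 against 9.42, 9.51 and 9.43, a 1.58-fold rise. Gja1, connexin 43, differed by -0.04 and was not called.

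Genes that glucocorticoids induce were divided by kind. Among 27 tested members were 6 rises and 15 falls, and the median was -0.13. The list of feedback and anti-inflammatory targets held 10 falls and 0 rises among 12 genes, with a median of -0.28, and the list of stress and metabolic targets 5 falls and 6 rises among 15, with a median of 0.003. Dusp1, a phosphatase that shuts off stress kinases, stood at 12.02, 11.99 and 12.06 against 11.50, 11.51 and 11.48 (-0.53, SE 0.022, limma, adjusted p = 3.18e-11). Tsc22d3, the anti-inflammatory protein GILZ, was 11.92, 11.92 and 11.87 against 11.53, 11.53 and 11.59, and Zfp36, which destabilizes inflammatory mRNAs, fell by 0.41. Sgk1, a kinase of ion transport, was 11.59, 11.53 and 11.57 against 11.20, 11.23 and 11.25, and Klf15, a metabolic factor of the heart, 9.99, 10.01 and 9.96 against 9.65, 9.61 and 9.65. The 6 rises, named after their values were seen, were of Pdk4, of Glul, glutamine synthetase (0.33), Ptgds, prostaglandin D synthase (0.33), the metallothioneins Mt1 (0.30) and Mt2 (0.24), and Cdkn1a, the cell cycle inhibitor p21 (0.23). These falls stand in libraries in which Nr3c1 was higher by 0.14 under the same label.

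The 250 bases before the start of 4 of these fallen genes are shown because the group is defined by regulation through DNA, in RefSeq's GRCm38.p6, a build other than that of the files. The 4 do not stand for the fallen genes at large, since each holds a motif that most of the others lack. Letters are in lower case with motif matches in capitals, read 5′ to 3′ on the strand of the gene, and a match is a description of letters, not a site in use.
Sgk1, chr10:21993640-21993889, plus strand, one of several starts of the gene: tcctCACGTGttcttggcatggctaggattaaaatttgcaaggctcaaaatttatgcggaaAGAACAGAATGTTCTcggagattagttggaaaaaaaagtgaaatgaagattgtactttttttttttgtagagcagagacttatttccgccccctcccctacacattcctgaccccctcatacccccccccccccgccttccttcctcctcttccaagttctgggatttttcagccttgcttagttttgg
Dusp1, chr17:26508473-26508722, minus strand: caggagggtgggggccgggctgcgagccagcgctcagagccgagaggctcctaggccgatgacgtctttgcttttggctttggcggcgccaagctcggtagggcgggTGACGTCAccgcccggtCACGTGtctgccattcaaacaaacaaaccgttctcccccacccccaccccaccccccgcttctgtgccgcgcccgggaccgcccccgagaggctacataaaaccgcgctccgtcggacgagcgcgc
Per1, chr11:69098699-69098948, plus strand, one of 2 starts: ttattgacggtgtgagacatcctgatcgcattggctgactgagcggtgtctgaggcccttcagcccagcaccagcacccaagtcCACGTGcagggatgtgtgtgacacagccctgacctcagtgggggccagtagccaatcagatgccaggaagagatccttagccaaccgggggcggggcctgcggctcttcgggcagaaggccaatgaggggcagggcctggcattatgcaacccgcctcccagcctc
Klf15, chr6:90462326-90462575, plus strand: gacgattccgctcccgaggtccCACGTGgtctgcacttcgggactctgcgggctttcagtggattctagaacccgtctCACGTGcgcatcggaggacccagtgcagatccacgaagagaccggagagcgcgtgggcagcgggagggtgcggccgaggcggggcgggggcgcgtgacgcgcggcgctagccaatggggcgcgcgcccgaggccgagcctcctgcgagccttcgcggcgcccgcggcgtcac

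The full palindrome of a glucocorticoid response element, AGAACA and TGTTCT with any 3 bases between, was found in Sgk1, 189 bases before the start. Searched on both strands with no other motif overlapping it, it is rare in such windows, in 3 of 27025 genes (0.011%), and Sgk1 was the only one of the 10907 tested genes matched by symbol that held it. CACGTG, the E-box bound by the clock activators and other factors, lies 246 bases before the start in Sgk1, 166 in Per1, 126 in Dusp1 and 228 and 172 in Klf15. It stood in 6.86% of all genes and in 9.71% of the tested ones. TGACGTCA, the cyclic AMP response element, lies 143 bases before the start of Dusp1 and stood in 2.92% of tested genes. Of the 15 glucocorticoid-induced genes that fell, 14 had a sequence, 5 with an E-box, 2 with the cyclic AMP element and 1 with the glucocorticoid element, and of the 6 that rose 0 held any of these. Of the genes lower in both fits 8.68% held an E-box and of those higher 10.5%, both near the share of tested genes. Only exact letters in a short window were counted.

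Several clock repressors and outputs fell. Of 22 tested clock genes 1 rose and 9 fell. Of the 10 genes of the negative arm 6 fell, with a median of -0.24, and of the 6 outputs 3 fell. Per1, the period gene that glucocorticoids also induce, stood at 10.79, 10.76 and 10.75 against 10.24, 10.19 and 10.19 (-0.56, SE 0.024, limma, adjusted p = 3.55e-11). Nr1d1, the repressor REV-ERBα, was 12.14, 12.18 and 12.11 against 11.67, 11.63 and 11.56. Dbp, an output factor driven by E-boxes, was 10.23, 10.28 and 10.31 against 9.79, 9.72 and 9.77. In all 3 genes the groups lay apart. Per3 fell by 0.41, Nr1d2 by 0.36, Per2 by 0.24, and the output factors Hlf and Tef by 0.23 and 0.15. The rise was of Nfil3, a repressor that opposes Dbp, at 0.26, which was counted with the 6 genes of the positive arm. In that arm Arntl, the activator BMAL1, differed by 0.07, and Clock stood at 10.63 to 10.66 against 10.60 to 10.71, neither called. The time of day of tissue collection is not given in the labels used here, and its part in these differences was not tested.

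Immediate early genes, which respond within minutes to growth factors, calcium or stress, fell in 12 of 28 cases and rose in 2. Nr4a1, an orphan nuclear receptor, stood at 9.95, 9.93 and 9.97 against 9.16, 9.18 and 9.18 (-0.78, SE 0.025, limma, adjusted p = 8.79e-13). Fos, a subunit of AP-1, was 8.27, 8.27 and 8.30 against 7.56, 7.52 and 7.54, and Egr1, a zinc finger factor, 10.21, 10.24 and 10.21 against 9.53, 9.56 and 9.47. These 3 lay well apart, while Jun differed by 0.04, Myc by -0.06 and Atf3 by -0.02 without a call. Junb fell by 0.34. Ier3 and Ier5 rose, by 0.17 and 0.18. Dusp1 and Zfp36 belong to this list as well as to the glucocorticoid-induced one.

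**Figure D3:**
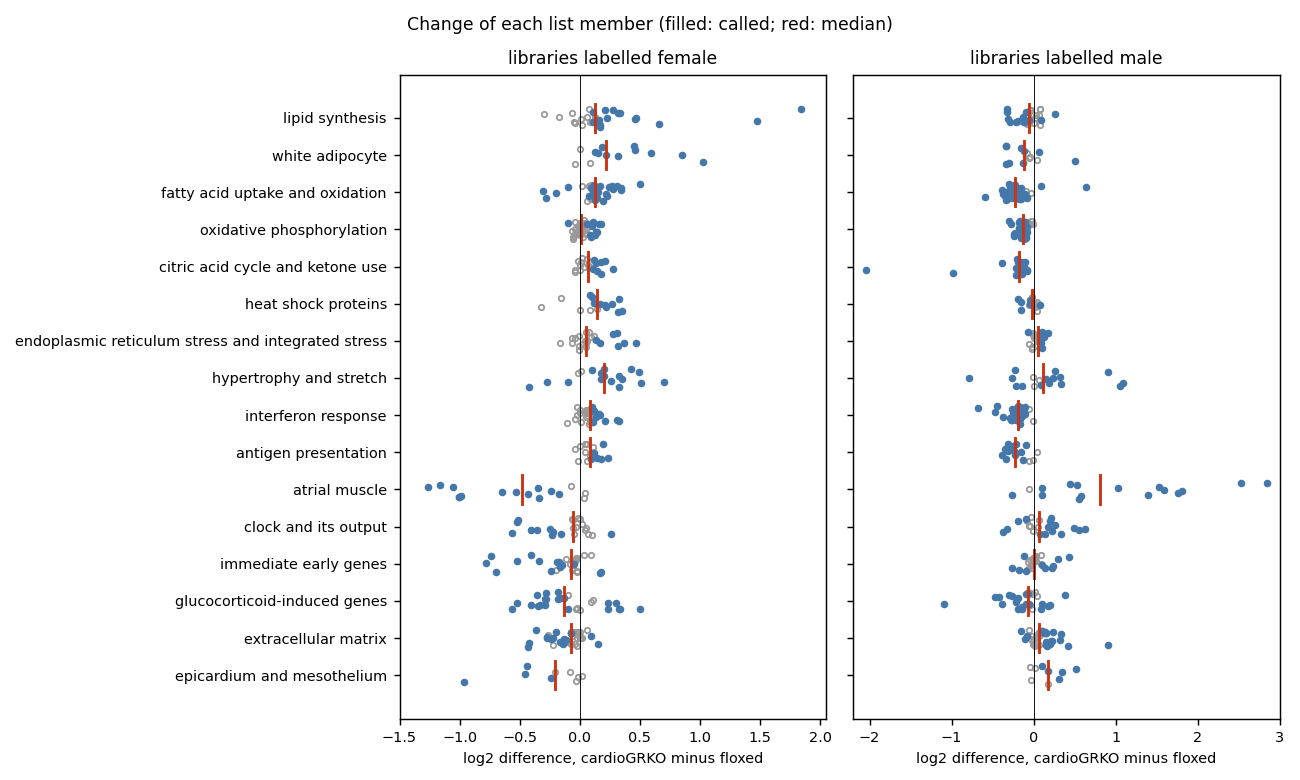
Change (log2, horizontal axis) of each tested member of 16 gene lists between the libraries labelled female (left) and those labelled male (right), with the list median in red. Points are filled on the left where called in both fits and on the right where called in the fit of all 12 libraries. On the left, lipid synthesis (median 0.13) and hypertrophy (0.20) lie to the right and atrial muscle (-0.48) to the left of 0, and on the right the atrial median is 0.80.

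Heat shock genes mostly rose, and some genes of the endoplasmic reticulum rose with them. Of 15 heat shock genes 10 rose and 0 fell (median 0.14). Hsph1, a large Hsp70 relative, stood at 10.57, 10.60 and 10.67 against 10.93, 10.97 and 10.98. Bag3, a co-chaperone of muscle, rose by 0.32 and Cryab, the small heat shock protein αB-crystallin, by 0.27. The inducible pair Hspa1a and Hspa1b, near-identical copies whose reads may be split, was called lower only with floxed 1 and 2 in the fit, and Hspa1b went from -0.32 to 0.02 without them. Of 23 genes of endoplasmic reticulum and integrated stress 7 rose and 0 fell. Hsp90b1, the reticulum's Hsp90, stood at 13.38, 13.35 and 13.44 against 13.85, 13.90 and 13.82, and Hspa5, its Hsp70 BiP, at 13.93, 13.92 and 13.99 against 14.23, 14.27 and 14.27. Both pairs of groups lay apart. Pdia6, a disulfide isomerase, rose by 0.37 and Calr, calreticulin, by 0.32. The transcription factors of the stress response did not follow, with Atf4 at 0.05, Xbp1 at 0.04, Ddit3 at -0.04 and Trib3 at -0.01, none called.

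A minority of interferon and antigen presentation genes rose, by small amounts. Of 30 interferon genes 10 rose and 0 fell (median 0.084). Oas2, a sensor of double-stranded RNA, stood at 9.57, 9.54 and 9.53 against 9.86, 9.86 and 9.89, and Iigp1, an interferon-induced GTPase, at 10.33, 10.32 and 10.42 against 10.66, 10.68 and 10.67. Stat2, a transcription factor of interferon signalling, rose by 0.17. Of 15 antigen presentation genes 6 rose, 5 of them of the class II pathway: H2-Ab1 by 0.23, H2-Eb1 by 0.19, H2-Aa by 0.15, H2-DMa by 0.12 and the invariant chain Cd74 by 0.17, from 11.06, 11.11 and 11.11 to 11.27, 11.22 and 11.30. The class I genes H2-K1 and H2-D1 differed by 0.05 and 0.04 without a call. Of 14 macrophage markers 2 rose and 2 fell, Lyz2, lysozyme, by 0.30 and Emr1, a macrophage surface receptor, by 0.32 against Lyve1 at -0.18 and Cd68 at -0.14, and the log2 of their sum went from 13.76, 13.75 and 13.79 to 13.87, 13.87 and 13.89. Of 7 B cell markers, which also carry class II, 3 rose. The part of these cells in the class II rise was not tested.

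Matrix genes fell more often than they rose, 15 against 2 of 36. Most falls were of matricellular and remodelling proteins, 11 of 21 with 0 rises. Postn, periostin of activated fibroblasts, stood at 11.28, 11.24 and 11.33 against 10.84, 10.86 and 10.85, and Thbs1, thrombospondin 1, fell by 0.37. Among 15 collagens and fibres 4 fell, but the fibrillar collagens leaned on floxed 1 and 2: without them Col1a1 went from -0.22 to -0.04 and lost its call, and Col1a2 went from -0.20 to -0.08. The 2 rises were of Col4a1 (0.15) and Col4a2 (0.09), the chains of basement membranes. Of 12 fibroblast markers 2 rose and 3 fell (1 and 4 after quantile normalization), and their summed log2 level was 17.12, 17.16 and 17.11 against 17.11, 17.11 and 17.10. Of 9 markers of epicardium and mesothelium 4 fell, with Upk3b, a uroplakin of mesothelium, at 8.52, 8.46 and 8.46 against 8.04, 8.07 and 8.03 and Msln, mesothelin, at -0.46. Upk1b, a uroplakin also made by surface epithelia, fell by 0.96 with all libraries and by 0.19 without floxed 1 and 2. Lgals3, a lectin of macrophages and epithelia, fell by 0.76, or 0.52 without floxed 1 and 2, from 9.06, 9.31 and 8.83 to 8.27, 8.31 and 8.33.

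Vascular and blood genes moved too. Of 14 endothelial markers 7 rose and 2 fell, with Kdr and Flt1, the receptors of VEGF, at 0.23 and 0.28 and Vwf, von Willebrand factor, at -0.15, and their summed log2 level went from 16.94, 16.91 and 16.96 to 17.08, 17.09 and 17.09. Cd36 and Fabp4, which endothelium shares with fat and muscle, are among the 7. Of 11 smooth muscle and pericyte markers 3 rose and 5 fell. Alas2, the first enzyme of heme synthesis in red cells, stood at 9.87, 9.83 and 9.91 against 10.56, 10.53 and 10.61, a 1.62-fold rise. Slc4a1, the anion exchanger of red cells, rose by 0.19, and the globin genes are listed at 0 in all 6 libraries. Hamp, the iron hormone hepcidin, which heart muscle also makes, fell from 7.96, 7.91 and 7.96 to 7.38, 7.48 and 7.39.

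**Figure D4:**
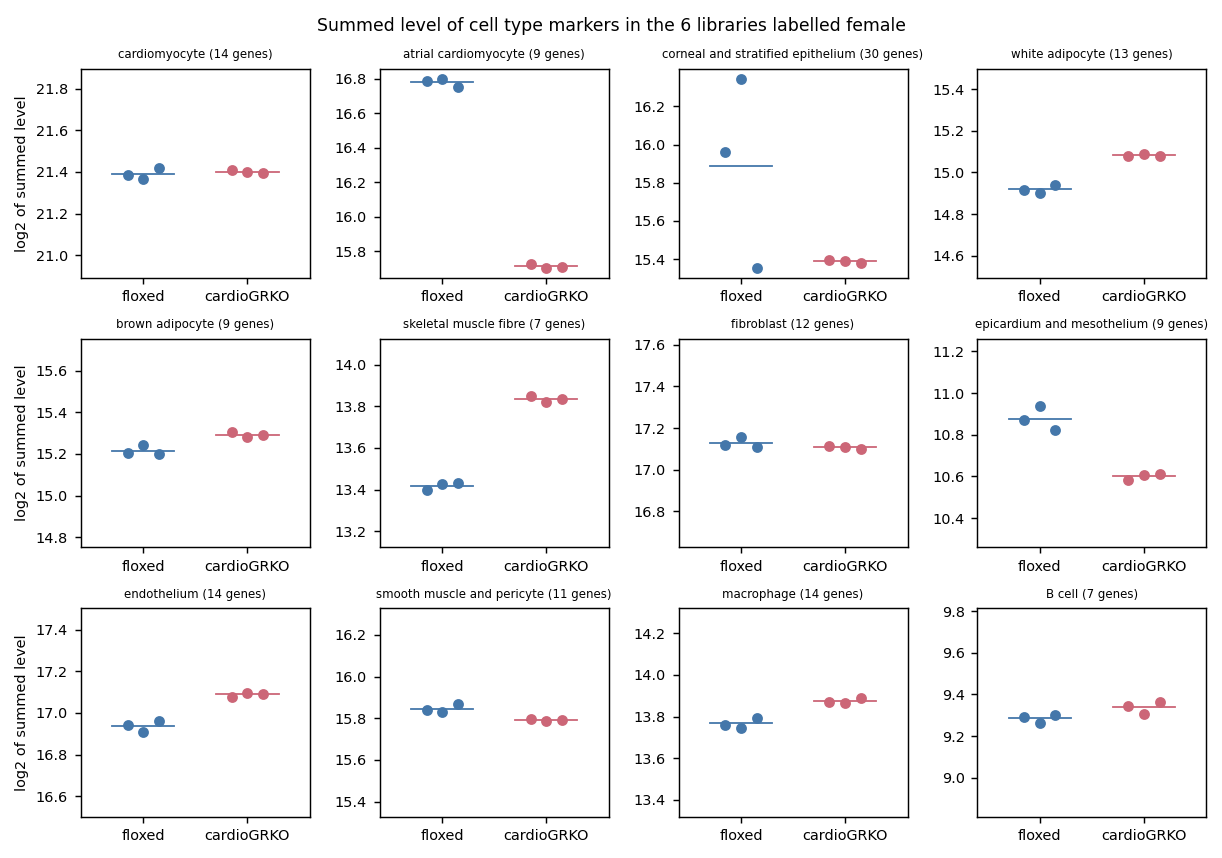
Log2 of the summed linear level of the tested markers of 12 cell types (vertical axes) in the 3 libraries labelled female floxed and the 3 labelled female cardioGRKO (points) with group means (lines). Cardiomyocyte markers lie at 21.37 to 21.42 in all 6, atrial markers drop from about 16.8 to 15.7, and the corneal markers are high in floxed 1 and 2 only.

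Signalling genes added a few strong single changes. Of 18 adrenergic and cyclic AMP genes 8 rose and 0 fell, or 5 and 1 after quantile normalization, led by Grk5, the kinase that silences β receptors, at 10.01, 10.03 and 10.08 against 10.38, 10.37 and 10.40, and Adrb3, the β receptor of fat, at 0.22. Adrb1, the main cardiac β receptor, differed by -0.09 and was called only with all libraries. Of 20 genes of insulin and growth factor signalling 2 rose and 3 fell, or 1 and 4 after quantile normalization, with Cish, a feedback gene of cytokine and growth hormone signals, at 11.52, 11.55 and 11.53 against 11.99, 11.93 and 11.89, and Igfbp5 and Igfbp4, which bind insulin-like growth factors, at -0.40 and -0.32. Of 13 genes of angiotensin, endothelin and vasoactive signals 2 fell, Adm, the vasodilator adrenomedullin, by 0.25 and Ednrb, an endothelin receptor, by 0.20. Of 19 p53 targets 7 rose and 1 fell, led by Ccng1, cyclin G1, at 0.25 and Cdkn1a at 0.23.

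Further lists held small counts. Of 22 proliferation genes 5 rose and 0 fell, with Mki67, the proliferation marker, at 8.51, 8.49 and 8.50 against 8.74, 8.79 and 8.83 and Top2a at 0.22, while the replication genes Mcm2, Mcm3, Mcm5 and Mcm6 differed by -0.07 to -0.03 without a call. Of 26 antioxidant genes and metallothioneins 8 rose and 1 fell, or 5 and 1 after quantile normalization, with catalase (Cat) at 0.24 and Gpx3, the plasma glutathione peroxidase, at -0.25. Of 18 genes of muscle atrophy and autophagy 6 rose and 2 fell, or 3 and 4 after quantile normalization, with Gabarapl1 and Foxo4 at 0.17 and 0.14 and Trim63, the ubiquitin ligase MuRF1, at -0.14. Of 20 genes of mitochondrial dynamics 4 rose, or 2 after quantile normalization, led by the fusion protein Mfn2 at 0.23. Of 18 prostaglandin genes 2 rose and 2 fell (2 and 1 after quantile normalization), of 15 complement genes 2 and 2, of 22 inflammatory mediators 3 and 2 (2 and 0 after quantile normalization), and of 16 heme and iron genes 4 and 2. Of 32 cytosolic ribosomal proteins 5 rose and 0 fell, or 3 and 1 after quantile normalization.

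Slc15a2, a peptide transporter, belonged to no list and was among the largest falls, from 8.51, 8.46 and 8.52 to 7.51, 7.42 and 7.46 (-1.03, SE 0.031, limma, adjusted p = 4.04e-13).

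Where this comparison differed from that of the 6 libraries labelled male, with which it shares no library, was tested by limma's interaction term. It was called for 4612 genes (31.3%) with all libraries and for 3535 (24%) in both fits, and 1693 genes (11.5%) were called in both fits for the female change and for the difference. The male comparison called 4032 genes (27.4%), 1879 higher (12.8%) and 2153 lower (14.6%), in its 1 fit. Of the 1341 genes higher in both female fits, 217 were higher (16.2%, or 11.5% of the male rises) and 477 lower (35.6%, or 22.2% of the male falls) between the libraries labelled male. Of the 1093 lower in both female fits, 164 were lower (15%, or 7.62% of the male falls) and 384 higher (35.1%, or 20.4% of the male rises). The others, 647 and 545, were not called in males. With the 2 female labels exchanged, the shares of 35.6% and 35.1% would be those called the same way in both sexes. The shares of 16.2% and 15% would be those called opposite ways. Nppb would then change by -0.49 in females and 1.09 in males, and Casq1 by -0.70 and 1.37. Of 21 glucocorticoid-induced genes called in females, the 12 called alike as labelled would be called opposite ways and 4 would turn alike. Whether the labels are exchanged was not tested.

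Atrial genes were among those with the largest differences as labelled. Nppa changed by -1.05 between the libraries labelled female and by 2.84 between those labelled male, a difference of -3.90 (limma, adjusted p = 1.02e-22), and Bmp10 by -0.65 and 2.52. With the 2 female labels exchanged, the values of Nppa would be 1.05 and 2.84, a difference of -1.79 with no test here. Of the 13 atrial genes that fell in females 12 rose in males, and Kcna5 fell in both (-0.43 and -0.26). At the other end, Ucp1 changed by 1.66 and -0.48, a difference of 2.14 (adjusted p = 1.77e-14), and Scd1 by 1.84 and -0.29. Fasn rose by 1.47 and differed by 0.03 in males, not called there. Ptgds changed by 0.33 and -1.10, Bdh1 by 0.27 and -0.98, Myot, the Z-disc protein myotilin, by 0.20 and -0.78, and Mgst1, a glutathione transferase, by 0.23 and -0.80. Each of these differences was called in both fits. In Nppa, Bmp10, Ptgds, Bdh1, Myot and Mgst1 the male floxed mean stood apart from the other group means. Ptgds stood at 10.35 in male floxed, against 9.25 in male cardioGRKO, 9.01 in female floxed and 9.34 in female cardioGRKO. Nppa stood at 13.39, 16.23, 16.10 and 15.04 in the same order. In Scd1, Fasn and Ucp1 the female floxed mean was the lowest, with Scd1 at 11.64, 11.35, 9.94 and 11.78.

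The direction in males of the genes called in females is given with that of each whole list. Of the 27 genes of fatty acid uptake and oxidation called in females, 23 were called the other way in males and 2 the same way, in a list of which 30 of 34 were lower in males (median -0.23). The 10 interferon genes that rose in females fell in males, as did 28 of all 30. Of the 8 citric acid cycle genes called in females 8 fell in males, as did all 19. Of the 17 matrix genes called in females 12 were called the other way and 0 the same way, and 17 of all 36 were higher and 3 lower in males. Of the 21 glucocorticoid-induced genes called in females 12 were called the same way and 4 the other way, and 5 of all 27 were higher and 15 lower in males. Sgk1 changed by -0.34 and -0.38 and Fkbp5 by -0.18 and -0.21, and the differences were not called (limma, adjusted p = 0.327 and 0.591). Per1 changed by -0.56 and -0.09, and Dusp1 fell by 0.53 and differed by -0.01 in males without a call, and the difference was called for both genes. Of 16 hypertrophy genes called in females 9 were called the same way, among them Nppb (0.49 and 1.09), and 6 the other way, among them Ankrd23 (0.51 and -0.15). Casq1, outside that list, rose in both sexes (0.70 and 1.37). The difference was called for Nppb and Casq1, which changed more in males.

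**Figure D5:**
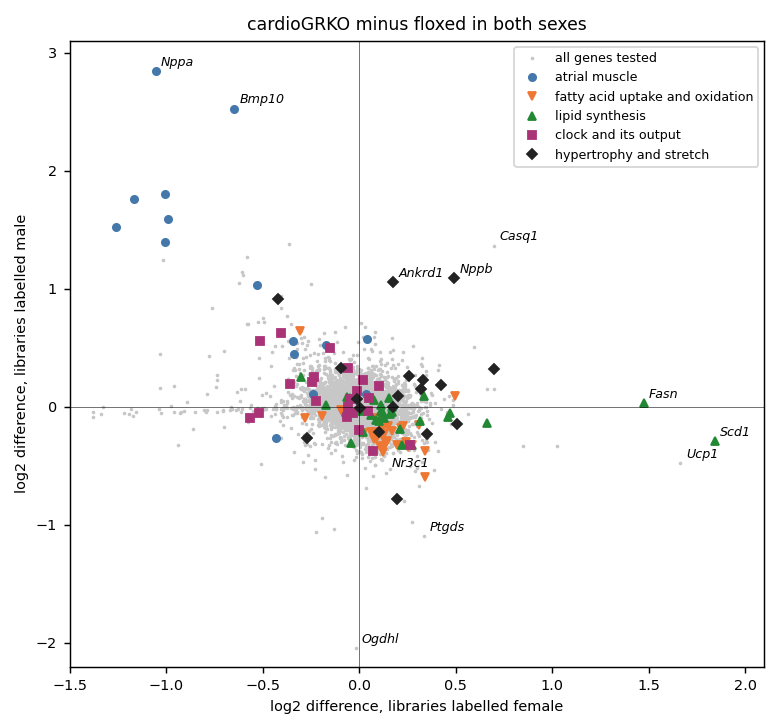
Change of each gene tested (grey) between the libraries labelled female (horizontal axis, log2) and those labelled male (vertical axis, log2), with 5 lists coloured. Atrial genes lie at the upper left, with Nppa at -1.05 and 2.84, lipid genes at the right near 0 in males, and 10 genes with more extreme values lie outside the axes.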

How the data were processed

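RNA of mouse heart was sequenced in 4 groups of 3 libraries, grouped by title. The deposited table holds log2 values that the authors normalized. The submitters' processing notes name Trim Galore, TopHat2, HTSeq, DESeq2 and the build mm9, without versions or order. The table lists 24918 genes, of which 4895 are at 0 in all libraries. Genes of low level barely differ between libraries in this table, so folds of such genes may be understated. Depth cannot be recovered, and precision is the spread between libraries. Symbols turned into dates (27) were restored by Entrez identifier, and 8 tested symbols occur more than once.

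One mean per group was fitted over the 12 libraries with limma 3.58.1 in R 4.3.3 (8 residual degrees of freedom, intensity trend), and again without the libraries labelled female floxed 1 and 2 (6 residual degrees of freedom). Adjusted p-values are limma's two-sided p-values after Benjamini-Hochberg adjustment over 14721 genes, called under 0.05. Both fits were tested on simulated data with known changes, with the spread taken from the groups other than female floxed. The simulation held no libraries that deviate like floxed 1 and 2, so it cannot show how the fits behave with them. The members and gene lists were chosen with earlier results of these data known, and lists are described by counts and medians without a test. Named genes are Nr3c1, the 15 largest rises and 15 largest falls called in both fits with groups that did not overlap, the 10 largest differences from males each way, the 10 largest changes lost without floxed 1 and 2, and up to 4 called members of each list with the smallest p (otherwise up to 2 tested members). Other named list members, such as Srebf1, Myh7, Sgk1 and Atf4, were chosen after their values were seen. Promoter letters come from RefSeq (GRCm38.p6), with 10907 of 14713 tested symbols matched, and no coordinates of the files were used. Alternatives were a filter set at log2 of 50 or left out, values normalized to equal quantiles or equal medians, moderation robust or with no trend, library weights, a fit of the 6 libraries labelled female, the replicate number as a block, a minimum fold of 1.2, a corneal marker score as a covariate and leaving out each library. Values with the 2 female labels exchanged were added after the data were seen.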

Additional observations from a re-analysis of the deposited data

Results flagged for a closer look

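The change between the libraries labelled female differed from that between the libraries labelled male for 4612 genes by limma's interaction term. Among the named genes the difference (female minus male change, log2) was -3.90 for Nppa, -3.67 for Krt12, -3.17 for Bmp10, -2.92 for Myl4, -2.81 for Dkk3, -2.79 for Myl7, -2.58 for Sln, -2.40 for Mybphl, -2.26 for Sbk3 and -1.85 for A2m. It was 2.14 for Ucp1, 2.13 for Scd1, 1.44 for Fasn, 1.43 for Ptgds, 1.36 for Car3, 1.25 for Bdh1, 1.18 for Pck1, 1.03 for Mgst1, and 0.98 for Iigp1 and Myot. The target gene Nr3c1 differed by 0.70. Without floxed 1 and 2 the difference of Krt12 was not called (limma, adjusted p = 0.62), and the others were. Groups of 3 libraries are too small for a search for single deviating libraries.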

How the results depend on the processing

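Depth is unknown, 3 libraries a group limit every test, and the lone library labelled floxed 3 carries the fit without floxed 1 and 2. That fit called 2734 genes, 1485 higher and 1249 lower, against 4309 with all libraries, and a corneal marker score as a covariate gave 2751, with 1257 lower. Against a minimum fold of 1.2, limma called 93 genes (34 higher and 59 lower), 78 without floxed 1 and 2, 74 in both fits and 420 for the difference from males, and Nr3c1, at 0.14, lost its call (adjusted p = 1). With no filter on low values 1568 genes were called in both fits. With library weights 1559 were called without floxed 1 and 2 and 1487 in both fits. The share of calls that were higher was 52% and lay between 51.4% and 56% in the other settings, except 36.6% with the minimum fold.

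Leaving out each of the 6 libraries gave 3393 (without floxed 1) to 4077 calls, 1815 to 2131 higher and 1578 to 1946 lower, 4175 to 4907 calls for the difference from males, and 0.12 to 0.16 for Nr3c1. After quantile normalization Atp5a1 changed by -0.082, and Atp5b, Mybpc3 and Pln, as deposited 0.11, 0.15 and 0.10 higher, by 0. With the corneal score as a covariate Aqp5 stood at 0.055, Asprv1 at 0.062, Calml3 at 0.11, Col17a1 at 0.077, Krt6a at 0.073, Krt6b at 0.095, Mgarp at 0.14 and Muc4 at 0.058. Without floxed 1 and 2, Calml3 stood at 0.0033, Col17a1 at 0.0048, Krt6b at 0.0056 and Mgarp at 0.041. The cause of these shifts was not tested.

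Same-numbered libraries labelled female correlated in their deviations from the group means at 0.093, -0.11 and 0.148, and floxed 2 went best with cardioGRKO 1 (0.24). These values gave no sign that the numbers pair the samples, but they cannot exclude it. Corneal transcripts of floxed 1 and 2 enter the deviations, and Krt12 was also highest in cardioGRKO 1 of its group (8.49 against 7.45 and 7.27). A fit with the number as a replicate block in each sex called 3988 genes, 1623 of them in both fits, and moved no count by over 1.5 times.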
